A study of Homo sapiens with 6 samples.

Results

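A set of 10 genes whose products move calcium across intracellular and surface membranes, or sense it, was followed on 6 arrays from the human colorectal cancer cell line SW480. The genes were chosen by name, through the Ensembl gene identifier of their probe set, and all 10 were among the 26445 probe sets measured. Those of the endoplasmic reticulum (ER) were the channels ITPR1, ITPR2 and ITPR3, the pumps ATP2A2 and ATP2A3, and the sensors STIM1 and STIM2. The pumps ATP2B1 and ATP2B4 belong to the plasma membrane and VDAC1 to the mitochondrial outer membrane, so the set reaches beyond the ER.

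All arrays were from KIAA1199-Cl.13, a single SW480 clone that carries a tetracycline repressor and an untagged KIAA1199 construct switched on by doxycycline. KIAA1199 encodes a secreted protein that is also found in the perinuclear space and at the cell membrane. Of the arrays, 3 were from cells given doxycycline at 50 ng/ml for 48 h and 3 from uninduced cells of the same clone, with 1 array of each kind in each of 3 independent experiments. Both groups carried the repressor and the construct, and both grew in medium with blasticidin S and G418. None of the 6 arrays came from cells that received doxycycline without the construct, so the drug and the induced protein cannot be told apart. The RNA came from whole cultures, so a change in every cell and a change in the share of cells that responded cannot be told apart either. KIAA1199 itself and the markers of colon epithelium were not analysed here, since the gene tables used did not pair symbols with Ensembl identifiers.

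The ER is the main calcium store of epithelial cells. IP3 receptors are channels in its membrane that release calcium when inositol trisphosphate, made after receptor stimulation, binds to them. SERCA pumps return calcium to the ER, and STIM proteins sense its level in the ER lumen and open Orai channels of the plasma membrane when the store runs low. PMCA pumps expel calcium from the cell, and VDAC1 lets ions and metabolites, calcium included, through the outer membrane of mitochondria.

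With doxycycline, ITPR3 rose 1.4-fold and STIM1 1.3-fold, while no other gene of the set differed by more than 1.14-fold in either direction. Both had an unadjusted p under 0.025 in limma, with the experiment as a block, and a fold change of at least 1.2, the limits by which genes were selected from these arrays in the published work. These 2 of 10 genes compare with 2.90% of all probe sets raised past the same limits. By the methods' t-test, a paired test on the same values, 1 of 10 was raised past them, ITPR3, beside 1.07% of all probe sets, and STIM1 was not (unadjusted p = 0.0888). None of the 10 (0) was lowered past them, and of all probe sets 2.94% were. ITPR3 had been selected by the authors from these same arrays, so its place among the raised genes is not independent evidence. The published work also measured ITPR3 by other methods, and those results are not reported here. After Benjamini-Hochberg adjustment over all probe sets, 0 of the 10 genes and 0% of all probe sets had an adjusted p under 0.05 with limma, and the same held for the methods' t-test. An unadjusted p under 0.05 was found for 3 of the 10 with limma (ITPR3, STIM1 and ATP2B4) and for 2 with the methods' t-test (ITPR3 and ATP2B1), against 12.3% and 10.4% of all probe sets. For ATP2B4 the limma p was 0.05 when rounded.

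Over the 10 genes the median log2 fold change was 0.02 and the median absolute log2 fold change 0.09, beside 0.002 and 0.10 over all probe sets. With doxycycline, 4 of the genes were higher in all 3 experiments (ITPR1, ITPR3, STIM1 and ATP2B4), as were 18.9% of all probe sets, and 2 were lower in all 3 (STIM2 and ATP2B1), as were 17.6%. In experiments 1, 2 and 3 taken singly, 7, 5 and 6 of the 10 were higher with doxycycline, beside 49.1%, 51.0% and 51.2% of all probe sets. The 10 genes thus did not share a direction.

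**Figure D1:**
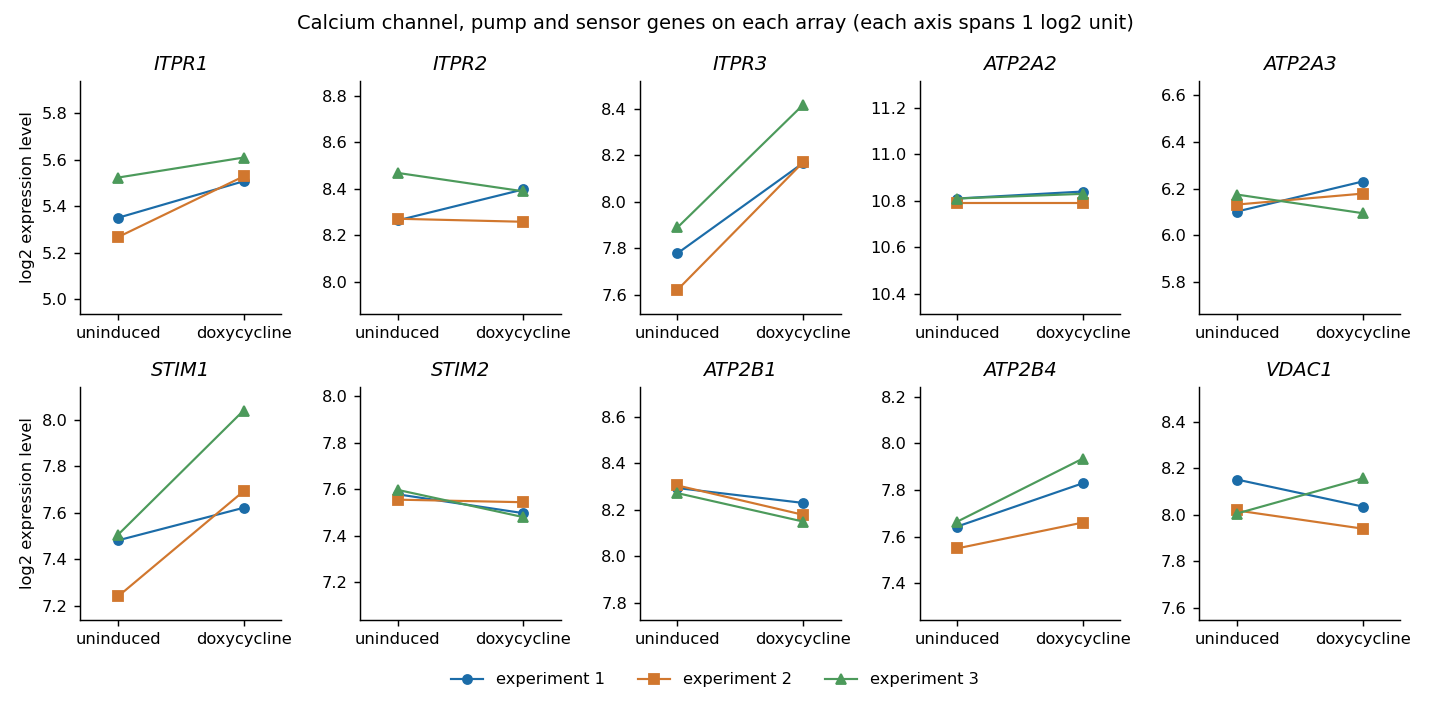
Log2 expression level (vertical axis) of each of the 10 genes on the uninduced and the doxycycline array of each experiment, with lines joining the arrays of one experiment and every axis spanning 1 log2 unit. All lines climb for ITPR1, ITPR3, STIM1 and ATP2B4, while the 6 points of ATP2A2 lie within 0.05 of each other.

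The DNA just before the start sites of ITPR3 and STIM1 is shown because these genes rose, beside the same window of ITPR1 and STIM2, a relative of each that did not pass the limits. The sequences are from RefSeq (GRCh38.p14), are written 5′ to 3′ on the strand of the gene, and end at the base before the start, with 250 bases in each. Capitals mark the GC box, GGGCGG or its complement CCGCCC, where the factor SP1 can bind. The windows are chr6:33621072-33621321 (plus strand) for ITPR3, chr3:4493098-4493347 (plus strand) for ITPR1, chr11:3855414-3855663 (plus strand) for STIM1 and chr4:26860591-26860840 (plus strand) for STIM2.
ITPR3: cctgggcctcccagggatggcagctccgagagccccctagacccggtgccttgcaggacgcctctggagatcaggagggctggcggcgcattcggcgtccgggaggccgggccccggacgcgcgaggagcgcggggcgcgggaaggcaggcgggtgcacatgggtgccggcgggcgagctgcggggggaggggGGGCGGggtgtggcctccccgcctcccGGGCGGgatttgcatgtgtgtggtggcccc
ITPR1: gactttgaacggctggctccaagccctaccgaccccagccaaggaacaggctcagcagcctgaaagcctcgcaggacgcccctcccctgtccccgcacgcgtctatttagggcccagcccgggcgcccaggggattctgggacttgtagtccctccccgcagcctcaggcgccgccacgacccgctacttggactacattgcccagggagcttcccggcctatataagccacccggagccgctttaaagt
STIM1: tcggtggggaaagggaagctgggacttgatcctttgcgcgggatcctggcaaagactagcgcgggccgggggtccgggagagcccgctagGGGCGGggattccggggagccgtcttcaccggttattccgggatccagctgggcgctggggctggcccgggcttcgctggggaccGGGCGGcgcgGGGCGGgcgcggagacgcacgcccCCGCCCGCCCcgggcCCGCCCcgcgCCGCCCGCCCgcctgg
STIM2: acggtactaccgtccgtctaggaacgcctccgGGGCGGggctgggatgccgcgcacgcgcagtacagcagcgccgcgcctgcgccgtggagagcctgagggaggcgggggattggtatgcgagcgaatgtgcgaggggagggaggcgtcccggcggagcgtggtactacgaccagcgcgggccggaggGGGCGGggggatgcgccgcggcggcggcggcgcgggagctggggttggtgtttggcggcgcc

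The STIM1 window held 8 GC boxes, counting overlapping ones, the ITPR3 window 2, the STIM2 window 2 and the ITPR1 window 0. At least 1 GC box was present in 42.6% of 35116 RefSeq windows of the same length. The printed windows were richer in G and C bases than the median window (58%). The share was 77.2% for STIM1, 76.8% for ITPR3, 75.2% for STIM2 and 64.8% for ITPR1. How far this share accounts for the GC boxes was not tested. STIM1 has 4 listed starts, and the windows of the others held 0, 2 and 8 GC boxes, the last of these overlapping the one printed. The TCF/LEF core CTTTGA, the sequence bound by the factors of Wnt signaling, occurred on either strand once in the ITPR1 window (1) and in neither the ITPR3 window (0) nor the STIM1 window (0), against 11.2% of all windows. The NFAT core GGAAA, read on either strand by calcium-dependent NFAT factors, occurred 1 time in the STIM1 window and 0 times in the ITPR3 window, against 55.6% of all windows. Each raised gene had more GC boxes in its printed window than the relative printed beside it, though the ITPR3 and STIM2 windows held the same number. The PMCA pumps, neither of which passed the limits, went the other way. ATP2B4, which was higher with doxycycline, had 1 GC box, while the windows of ATP2B1, which was lower, held 2 and 4. The windows of ATP2A2, which hardly changed, held 0 and 4. Those of VDAC1, which also hardly changed, held 1, 0, 2 and 2. ITPR2, the other relative of ITPR3, had no window to compare. Whether the number of GC boxes bears on the rise of a gene was not tested.

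Among the IP3 receptors, ITPR3 was the one that passed the limits. ITPR3 (ENSG00000096433_at) had log2 levels of 7.78, 7.62 and 7.89 on the uninduced arrays of experiments 1, 2 and 3, and of 8.17, 8.17 and 8.42 on the doxycycline arrays. Every doxycycline array lay above every uninduced array, with a gap of 0.28 between the groups. Of all probe sets, 8.64% had groups that did not overlap in this direction, whatever the gap. The mean log2 level went from 7.76 ± 0.13 (SD, n = 3) to 8.25 ± 0.14 (SD, n = 3), and the differences in the 3 experiments were 0.39, 0.55 and 0.53. The log2 fold change was 0.49 (limma, standard error 0.07, unadjusted p = 0.00217, adjusted p = 0.349), with a 95% confidence interval of 1.23-fold to 1.6-fold. A larger rise was measured at 438 of the probe sets, or 1.66%. The methods' t-test also placed ITPR3 past the limits (unadjusted p = 0.0104). ITPR3 was past them in all 15 alternative settings that kept the fold change minimum at 1.2, with a log2 fold change between 0.41 and 0.55, and was not past them with a minimum of 1.5.

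ITPR1 (ENSG00000150995_at), the receptor type best known from neurons, had log2 levels of 5.35, 5.27 and 5.52 without doxycycline and of 5.51, 5.53 and 5.61 with it. It was higher with doxycycline in each experiment, but the groups overlapped, because the uninduced array of experiment 3 lay above the doxycycline array of experiment 1. Its log2 fold change of 0.17 did not pass the limits (limma, unadjusted p = 0.0738, adjusted p = 0.449), and the 95% interval ran from 0.982-fold to 1.29-fold. ITPR2 (ENSG00000123104_at), the receptor type most sensitive to IP3, had log2 levels of 8.27, 8.27 and 8.47 without doxycycline and of 8.40, 8.26 and 8.39 with it. It was higher in experiment 1 and lower in experiments 2 and 3. Its log2 fold change was 0.01 (limma, adjusted p = 0.96), with a 95% interval of 0.875-fold to 1.16-fold.

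By mean level, ITPR1 lay above 46.5% of the probe sets, ITPR3 above 85.7% and ITPR2 above 88.6%, and no detection calls were used. Whether the lower level of ITPR1 bears on its change was not tested. The change of ITPR3 exceeded that of ITPR1 by 0.23, 0.29 and 0.44 on the log2 scale in the 3 experiments, a mean of 0.32 ± 0.11 (SD, n = 3). It exceeded that of ITPR2 by 0.26, 0.56 and 0.61, a mean of 0.47 ± 0.19 (SD, n = 3). Each of these differences had a p of 0.25 in an exact permutation test that flips the signs of the pairs, two-sided, the smallest that 3 pairs allow, and 0.3125 after adjustment over the 5 comparisons of related genes. With 3 pairs this test therefore cannot place these differences past a limit of 0.05, although their direction was the same in 3 of 3 experiments. No other test of these differences was run.

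Of the store sensors, STIM1 rose and STIM2 did not pass the limits. STIM1 (ENSG00000167323_at) had log2 levels of 7.48, 7.24 and 7.51 on the uninduced arrays and of 7.62, 7.69 and 8.04 on the doxycycline arrays. The groups did not overlap, with a gap of 0.12, and 8.64% of all probe sets were separated in this direction, whatever the gap. The doxycycline array of experiment 3 stood above the rest. The mean went from 7.41 ± 0.15 (SD, n = 3) to 7.79 ± 0.22 (SD, n = 3). The log2 fold change was 0.38 (limma, standard error 0.10, unadjusted p = 0.0224, adjusted p = 0.361), with a 95% interval of 1.06-fold to 1.58-fold. The differences of 0.14, 0.45 and 0.53 were uneven, that of experiment 1 being the smallest.

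The call of STIM1 was close to the limit. It was not past it in the methods' t-test (unadjusted p = 0.0888), nor in limma without the experiment as a block (unadjusted p = 0.0323). Leaving out experiment 2 or experiment 3 also ended the call, with log2 fold changes of 0.34 and 0.30, while leaving out experiment 1 kept it, with 0.49. Of the 15 alternative settings that kept the fold change minimum, 9 ended the call. The direction was the same in all 15, with log2 fold changes from 0.25 to 0.49.

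STIM2 (ENSG00000109689_at), which responds to smaller losses of ER calcium than STIM1, had log2 levels of 7.58, 7.56 and 7.60 without doxycycline and of 7.50, 7.54 and 7.48 with it. The groups were separated by only 0.01, the doxycycline arrays being lower, as in 7.93% of all probe sets. Its log2 fold change of -0.07 did not pass the limits (limma, adjusted p = 0.703), with a 95% interval of 0.843-fold to 1.08-fold. The change of STIM1 exceeded that of STIM2 by 0.22, 0.46 and 0.65 in the 3 experiments, a mean of 0.45 ± 0.22 (SD, n = 3; exact permutation of signs, p = 0.25, adjusted p = 0.3125).

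**Figure D2:**
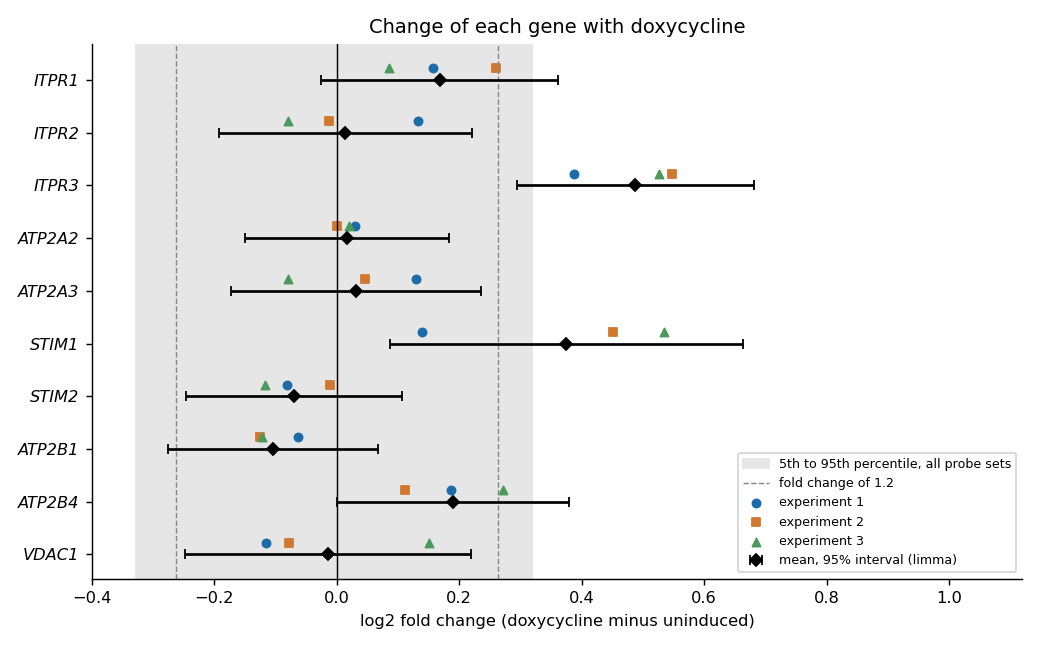
Log2 fold change with doxycycline (horizontal axis) for each gene, as the mean with its 95% interval from limma (diamonds and bars) and as the difference in each experiment (coloured symbols), with dashed lines at a fold change of 1.2 and a grey band from the 5th to the 95th percentile of all probe sets. The intervals of ITPR3 and STIM1 lie above 0, and their means, 0.49 and 0.38, lie outside the band, whose upper end is 0.32. The interval of ATP2B4 starts at 0 when rounded, and its mean lies inside the band.

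The SERCA pumps, which refill the ER, gave no change past the limits. ATP2A2 (ENSG00000174437_at), the SERCA gene active in most cell types, had log2 levels of 10.81, 10.79 and 10.81 without doxycycline and of 10.84, 10.79 and 10.83 with it. The 6 arrays spanned only 0.05, a range narrower than that of all but 0.0756% of the probe sets. By mean level ATP2A2 lay above 99.4% of the probe sets, and whether this high level bears on the narrow range was not tested. The log2 fold change of ATP2A2 was 0.02 (limma, adjusted p = 0.936). Since limma shares the spread over all probe sets, the 95% interval was wider than the arrays themselves, from 0.901-fold to 1.14-fold. ATP2A3 (ENSG00000074370_at), a SERCA gene of epithelial and blood cells, had log2 levels of 6.10, 6.13 and 6.17 without doxycycline and of 6.23, 6.18 and 6.09 with it. The direction differed between experiments, and the log2 fold change was 0.03 (limma, adjusted p = 0.895), with a 95% interval of 0.887-fold to 1.18-fold. The changes of the 2 pumps differed by a mean of 0.02 ± 0.10 (SD, n = 3; exact permutation of signs, p = 1).

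The PMCA pumps, which carry calcium out of the cell, lay on opposite sides of 0. ATP2B4 (ENSG00000058668_at) had log2 levels of 7.64, 7.55 and 7.66 without doxycycline and of 7.83, 7.66 and 7.94 with it. It was higher in each experiment, and the groups overlapped by the least margin, the doxycycline array of experiment 2 lying just below the uninduced array of experiment 3. Its log2 fold change of 0.19, or 1.14-fold, was under the fold change limit (limma, adjusted p = 0.407), with a 95% interval of 1-fold to 1.3-fold. It came past the limits in 1 of 15 alternative settings, without the block and without the doxycycline array of experiment 2, where its log2 fold change was 0.26.

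ATP2B1 (ENSG00000070961_at), a PMCA gene expressed in nearly all tissues, had log2 levels of 8.29, 8.31 and 8.27 without doxycycline and of 8.23, 8.18 and 8.15 with it. All doxycycline arrays lay below all uninduced arrays, with a gap of 0.04, as in 7.93% of all probe sets, whatever the gap. The log2 fold change was -0.10 (limma, adjusted p = 0.563), with a 95% interval of 0.827-fold to 1.05-fold. The difference did not pass the limits. The change of ATP2B4 exceeded that of ATP2B1 by 0.25, 0.24 and 0.39 in the 3 experiments, a mean of 0.29 ± 0.09 (SD, n = 3; exact permutation of signs, p = 0.25, adjusted p = 0.3125).

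VDAC1 (ENSG00000213585_at) had log2 levels of 8.15, 8.02 and 8.01 without doxycycline and of 8.04, 7.94 and 8.16 with it. It was lower in experiments 1 and 2 and higher in experiment 3, and the log2 fold change was -0.01 (limma, adjusted p = 0.963), with a 95% interval of 0.842-fold to 1.16-fold. VDAC1 has processed pseudogenes of nearly the same sequence, and how the probes were chosen to avoid them is not given in the sources used here, so its level is uncertain.

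**Figure D3:**
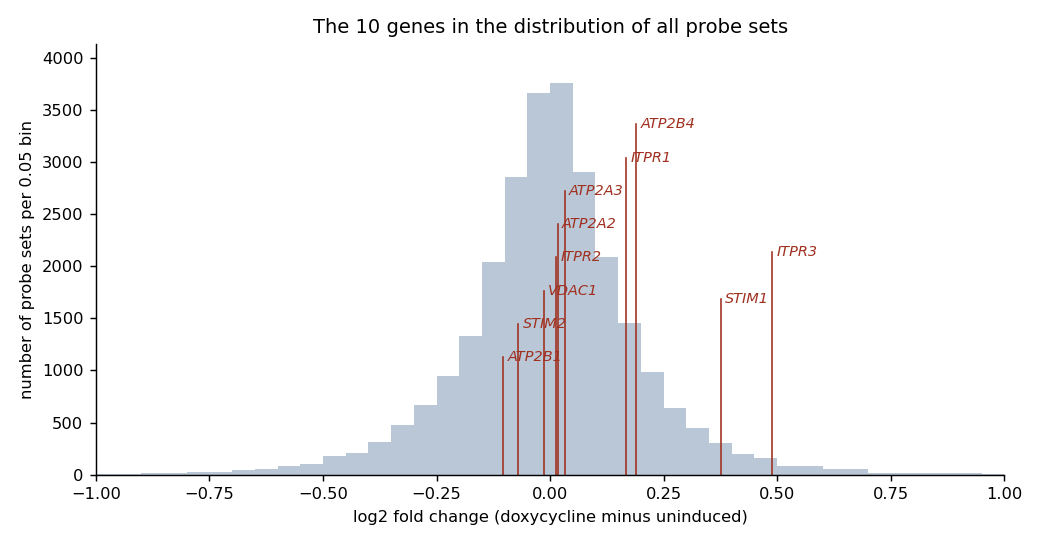
Number of probe sets (vertical axis) by log2 fold change with doxycycline (horizontal axis, in bins of 0.05), with a red line at the value of each of the 10 genes, whose height only sets the labels apart; 54 probe sets lie beyond the plotted range. Of the genes, 8 lie between -0.10 and 0.19, and STIM1 and ITPR3 lie in the right tail.

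The 95% intervals give the changes that these arrays leave possible for the other genes. For ITPR2, ATP2A2, ATP2A3, STIM2, ATP2B1 and VDAC1 both ends lay within 1.21-fold of no change, and for ITPR1 and ATP2B4 the upper ends were 1.29-fold and 1.3-fold.

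**Figure D4:**
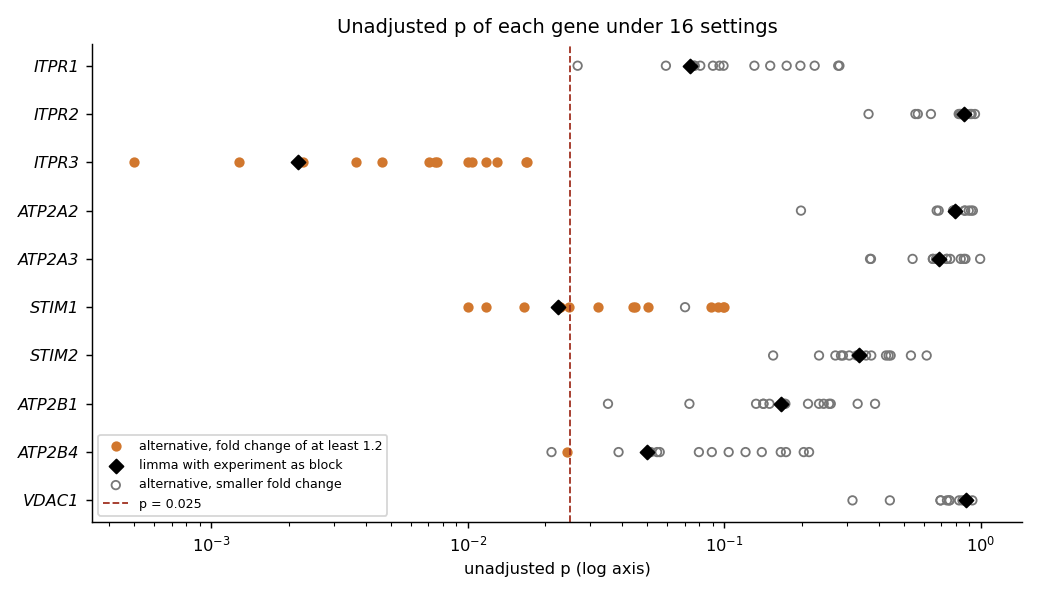
Unadjusted p (horizontal log axis) of each gene under limma with the experiment as a block (black diamonds) and under 15 alternative settings (circles, filled where the fold change was at least 1.2), with a dashed line at 0.025. All circles of ITPR3 lie left of the line, those of STIM1 lie on both sides of it, and the only filled circle of another gene left of the line is that of ATP2B4.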

How the data were processed

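Total RNA from 3 independent experiments was hybridized to 6 Affymetrix human exon arrays. The authors deposited log2 expression levels, 1 per array for each of 26445 probe sets named by an Ensembl gene identifier. The submitters' processing notes name RMA, and at any rank the levels of the arrays were within 0.024 of each other. The annotation version is not given in the sources used here, and no detection calls were used. Groups and experiment numbers were taken from the sample titles, since the protocol text of every sample mentions doxycycline. All 6 columns were used.

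Testing was 2-sided with limma 3.58.1 in R 4.3.3 (lmFit, eBayes). The experiment was a block, following the paired test of the methods, and the Benjamini-Hochberg adjustment covered every probe set. A call required a fold change of at least 1.2 together with an unadjusted p under 0.025, and calls by an adjusted p under 0.05 were counted too. The methods' t-test, paired and 2-tailed, was also run on these values. Intervals are limma's 95% intervals. The fits were tested on simulated data. Precision is limited by the 3 arrays per group.

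The 10 genes and the lists were chosen with earlier results of these data known. All 10 genes are named, as the rule for named genes asks. The 5 comparisons between related genes and the promoter motifs were chosen after the values were seen. A list of other calcium genes, the cell type markers and KIAA1199 were not analysed here, since the 59792 genes in the table of gene names have 0 Ensembl identifiers, and protein sequences were not used. Promoter windows were read from RefSeq for 8 of the 10 genes. Alternatives left out the block, each experiment, or each array, or changed the filter, the variance prior, the fold change minimum or the level trend.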

Additional observations from a re-analysis of the deposited data

How the results depend on the processing

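Of the 10 genes, 2 were past the limits with limma and the experiment as a block. The number was 1 (ITPR3) with no replicate block and with the methods' t-test, 0 with a fold change minimum of 1.5, and 2 in the other settings that kept all arrays. It was 1 to 2 with an experiment left out, and also 1 to 2 with 1 array left out in the fits without the block, where one of the settings with 2 held ITPR3 and ATP2B4 and not STIM1. The number with an adjusted p under 0.05 was 0 throughout. The adjusted p of ITPR3 ran from 0.162, with a prior that depends on the level, to 0.847, with no block and no uninduced array from experiment 2. Of the 15 settings that kept the fold change minimum, STIM1 lost its call in 9, among them the block left out, the methods' t-test and experiment 2 or 3 left out.

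ITPR2 and VDAC1 changed sign when single arrays or experiments were left out, and ATP2A3 when experiment 1 was left out. In each of these genes the experiments differed in direction, and the log2 fold change was small (0.01, -0.01 and 0.03). Why the experiments differed was not tested. With an experiment left out, the log2 fold change of ITPR2 lay between -0.046 and 0.060, that of ATP2A3 between -0.016 and 0.088 and that of VDAC1 between -0.097 and 0.037. In the fits with no replicate block, ITPR2 turned to -0.021, -0.018, -0.011 and -0.007 without the uninduced array of experiment 1 or 2 or the doxycycline array of experiment 1 or 3. VDAC1 turned to 0.032 without the uninduced array of experiment 1 and to 0.038 without the doxycycline array of experiment 2. The other 7 genes kept their direction in all 15 of these settings. Past the limits were 1543 of all probe sets, 577 with the methods' t-test, 238 with a fold change minimum of 1.5, 986 to 1344 with an experiment left out and 696 to 1361 with 1 array left out and no block.

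Same-numbered arrays deviated from their group means with correlations of 0.039, 0.049 and 0.13 across probe sets. For differently numbered arrays of the 2 groups the correlations ran from -0.092 to 0.044. All were low, and whether they reflect a pairing was not tested. The block was used because the methods pair the experiments. Settings for the list of other calcium genes were not run, as its identifiers could not be matched. All of the 10 genes remained when the lowest 25% of probe sets by level was removed.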
